A study of Homo sapiens with 6 samples.

Results

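The I-BAR genes are a family of 5 genes, MTSS1, MTSS2, BAIAP2, BAIAP2L1 and BAIAP2L2, and each was matched to 1 Ensembl identifier among the 64253 in the count table. Of the 5, 4 had enough counts to be tested among 16091 tested genes, and BAIAP2L2 did not. RNA was measured in NCI-H1299 cells, an established human lung cancer line, in 3 libraries from cells overexpressing MTSS1 and 3 libraries from wild type cells. The overexpressing cells carried a plasmid with mCherry-tagged MTSS1, were kept under hygromycin and were sorted by flow cytometry, per the labels' protocols. The labels do not say whether they were 1 clone or a pool, and the promoter of the plasmid is not given in the sources used here. A control-plasmid library is not among the 6, so the effects of the plasmid, the selection and the sorting cannot be told apart from that of MTSS1.

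I-BAR proteins bind the plasma membrane through a crescent-shaped helical domain, the inverse BAR domain, and mostly push it outward, whereas the classical BAR, N-BAR and F-BAR domains mostly bend it inward. Their tails recruit actin regulators, so that membrane shape and actin assembly are coupled in filopodia, lamellipodia and cell junctions. MTSS1, also known as missing in metastasis, and MTSS2 (formerly MTSS1L) end in an actin-binding WH2 motif. BAIAP2 (IRSp53), BAIAP2L1 (IRTKS) and BAIAP2L2 (Pinkbar) carry an SH3 domain that binds partners such as the WAVE proteins and Eps8.

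The family members are distinct enough at the RNA level that a 50-base read, the length sequenced here, could not match a pair of them exactly. Over the transcripts of GENCODE release 29, no pair of the 5 genes shared a 50-base word. The longest run shared by MTSS1 and MTSS2 was 23 bases, and by the other pairs between 11 and 16 bases. MTSS1 and MTSS2 had 72.5% identical bases over the aligned part of their first 750 coding bases, against 53.1% to 60.6% for the other pairs. The stretch below, 1 read long and within 1 exon in each gene, shows how BAIAP2, BAIAP2L1 and BAIAP2L2 differ even where they are most alike at the start of the coding sequence. It is the window with the most bases in common near the start of the coding sequence, and capitals mark the 29 of 50 positions that are identical in all 3 genes.
BAIAP2 (GRCh38 chr17:81053674-81053723, plus strand, coding bases 61 to 110): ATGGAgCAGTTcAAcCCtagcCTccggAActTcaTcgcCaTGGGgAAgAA
BAIAP2L1 (GRCh38 chr7:98362377-98362426, minus strand, coding bases 58 to 107): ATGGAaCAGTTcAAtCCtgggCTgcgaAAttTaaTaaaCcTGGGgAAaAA
BAIAP2L2 (GRCh38 chr22:38109153-38109202, minus strand, coding bases 58 to 107): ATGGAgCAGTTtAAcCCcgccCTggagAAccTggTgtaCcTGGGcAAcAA
The sequences are from the GENCODE release 29 transcripts. BAIAP2 and BAIAP2L1 matched at 37 of the 50 positions, BAIAP2 and BAIAP2L2 at 34, and BAIAP2L1 and BAIAP2L2 at 33.

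Total counts per library ranged from 13883380 to 25741708 in overexpressing cells and from 19018751 to 29479453 in wild type cells. The first principal component, with 34.8% of the variance, set replicate 1 of both groups apart from the other 4 libraries. Of 10 lung adenocarcinoma markers, 7 averaged under 1 CPM (read counts scaled to library size with TMM), and the surfactant genes SFTPA1, SFTPA2 and SFTPB had 0 counts in all 6 libraries. Their summed level was 8.26 to 9.65 CPM in overexpressing and 6.52 to 7.05 CPM in wild type cells. The broader carcinoma line markers KRT8, KRT18, VIM and CD44 summed to 5469 to 5823 CPM in overexpressing and 5534 to 5960 CPM in wild type cells, a sum that is mostly VIM. The keratin gene KRT8 was lower, at 68.8, 30.3 and 49.6 CPM in overexpressing cells, against 211.9, 135.6 and 146.8 CPM in wild type cells (log2 fold change -1.74, edgeR's adjusted p = 0.011, passing in 5 of 6 fits without 1 library and not without overexpressing replicate 3, at 0.055). Its partner KRT18 stood at 222.8 to 395.8 CPM in overexpressing and 432.6 to 637.7 CPM in wild type cells (log2 fold change -0.80, edgeR's adjusted p = 0.061, and 4.4e-06 with neighbouring title numbers as a block). Leukocyte, fibroblast and endothelial marker sums were at most 4.11, 6.57 and 2.35 CPM in overexpressing and at most 4.57, 4.57 and 4.62 CPM in wild type cells. The part of these markers in the results below was not tested.

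MTSS1 RNA rose in the overexpressing cells, and none of the 3 tested paralogs passed the test. MTSS1 (ENSG00000170873, GRCh38 chromosome 8, 124550790 to 124728429, minus strand) had 7494, 14160 and 14194 counts in the overexpressing libraries and 456, 543 and 647 counts in the wild type libraries. These are 550.3, 544.2 and 568.1 CPM in overexpressing cells, against 24.2, 18.0 and 24.3 CPM in wild type cells. Every overexpressing library lay far above every wild type library, and the 3 overexpressing libraries were close to each other. The coefficient of variation was 2.24% among overexpressing and 16.4% among wild type libraries, where replicate 2 was the low one. The fold change was 25.1 (95% interval 20.5 to 30.8; log2 fold change 4.65, SE 0.13, edgeR's adjusted p = 3.6e-07, n = 3 per group). Fold changes are of overexpressing over wild type cells from edgeR's quasi-likelihood test, with p-values adjusted by Benjamini-Hochberg across the 16091 genes and called under 0.05. The call held in 6 of 6 fits that left out 1 library, with log2 fold changes of 4.51 to 4.72. Of the 4 tested I-BAR genes MTSS1 alone passed, where 4.28% of all tested genes did. In these bulk samples, more cells with a transcript and more of it per cell cannot be told apart. Counts do not separate plasmid transcripts from those of the cell's own gene.

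None of the tested genes around MTSS1 passed the test. The 10 nearest tested genes on chromosome 8 had log2 fold changes of -0.82 to 0.06 with a median of -0.06, and 0 of 10 passed edgeR's test (2 at an unadjusted p under 0.05, and 0 with DESeq2). NDUFB9, which encodes a subunit of respiratory complex I, overlaps the 3′ end of MTSS1 on the opposite strand and shares 535 of the 7994 different 50-base words of the MTSS1 transcripts. It had 9282 pooled counts in overexpressing and 11423 in wild type cells (log2 fold change -0.06, edgeR's adjusted p = 0.80). On the other side the nearest tested gene, ZNF572, had a log2 fold change of -0.62 (edgeR's adjusted p = 0.19). Beyond it lie SQLE, the squalene epoxidase of cholesterol synthesis, and WASHC5, a subunit of the WASH complex that activates actin nucleation. They had log2 fold changes of 0.02 and 0.03 (edgeR's adjusted p = 0.91 and 0.92).

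**Figure D1:**
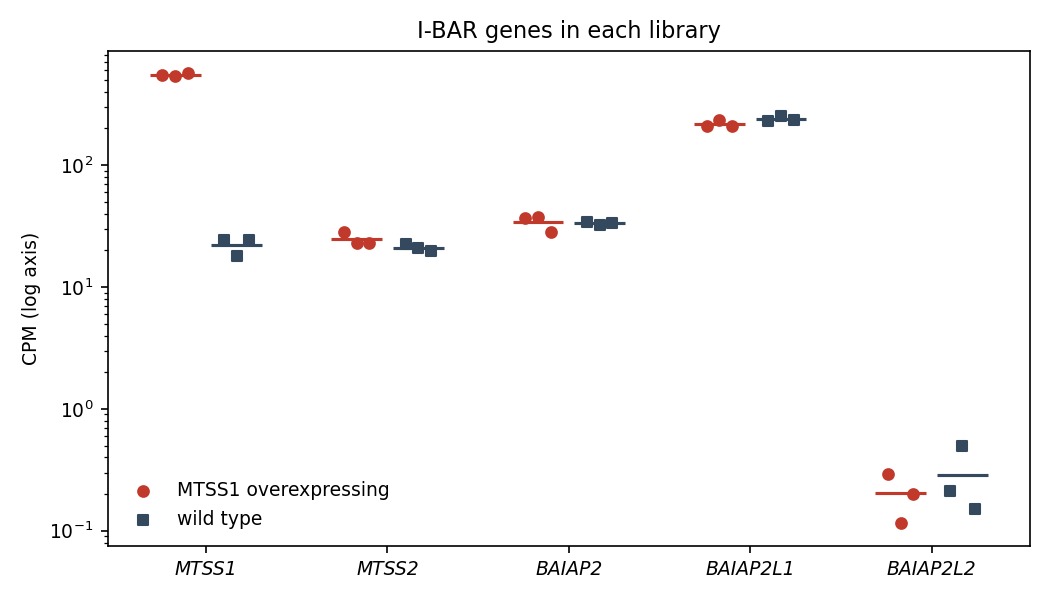
Level of each I-BAR gene in each of the 6 libraries, in CPM on a log axis, with red circles for the 3 MTSS1 overexpressing and dark squares for the 3 wild type libraries, and a line at each group's mean. MTSS1 lies at 544.2 to 568.1 CPM in overexpressing and 18.0 to 24.3 CPM in wild type cells, while the points of BAIAP2, BAIAP2L1 and BAIAP2L2 overlap between the groups.

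MTSS2, the closest relative of MTSS1, likewise ends in a WH2 motif. Its level was slightly higher in every overexpressing library, by an amount that did not pass the test. MTSS2 (ENSG00000132613, chromosome 16, 70661204 to 70686066, minus strand) stood at 28.1, 22.8 and 23.1 CPM in overexpressing cells, against 22.6, 20.8 and 19.7 CPM in wild type cells. The groups did not overlap, but overexpressing replicate 2 lay just above wild type replicate 1. Groups without overlap were seen in 25.5% of all tested genes, and in 12.1% with the overexpressing cells higher. The log2 fold change was 0.23 (SE 0.12, 95% interval -0.05 to 0.51, edgeR's adjusted p = 0.36), so that a fold change from 0.964 to 1.42 lies within the interval. Of the 5101 different 50-base words of its transcripts, 3016 also lie opposite ENSG00000279569, an unconfirmed gene on the other strand that had 0 pooled counts in overexpressing and 6 in wild type cells. The strand setting of the counting is not given in the sources used here.

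BAIAP2 encodes IRSp53, which joins the GTPases Cdc42 and Rac1 to WAVE and Ena/VASP proteins. BAIAP2 (ENSG00000175866, chromosome 17, 81035122 to 81117432, plus strand) stood at 36.8, 37.5 and 28.1 CPM in overexpressing cells, against 34.2, 32.3 and 33.4 CPM in wild type cells. The overexpressing libraries spanned the wild type ones, with replicate 3 below and replicates 1 and 2 above all of them. The log2 fold change was 0.04 (SE 0.13, 95% interval -0.25 to 0.32, edgeR's adjusted p = 0.92), and its sign changed with the libraries included. The transcript that starts next to BAIAP2 in the other direction, BAIAP2-DT, had a log2 fold change of -0.31 (edgeR's adjusted p = 0.57).

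BAIAP2L1 encodes IRTKS, which acts at microvilli and beneath adhering bacteria. It had the highest level per kilobase of the family in wild type cells, and whether its difference between the groups passed depended on the fit. BAIAP2L1 (ENSG00000006453, chromosome 7, 98291651 to 98401068, minus strand) stood at 207.8, 234.8 and 211.1 CPM in overexpressing cells, against 229.7, 255.6 and 235.1 CPM in wild type cells. The groups overlapped, since overexpressing replicate 2 lay above wild type replicate 1. The log2 fold change was -0.14 (SE 0.08, 95% interval -0.33 to 0.05, edgeR's adjusted p = 0.41), and the interval in fold is 0.797 to 1.03. With the neighbouring numbers in the library titles as a replicate block it was -0.14 again and passed (edgeR's adjusted p = 0.043), while 22.7% of all tested genes passed in that fit. Whether libraries with adjacent numbers were made together is not stated in the labels. BAIAP2L1 shares 614 of its 4792 different 50-base words with BRI3 on the opposite strand, which had a log2 fold change of 0.30 (edgeR's adjusted p = 0.31).

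BAIAP2L2 encodes Pinkbar, known from intestinal and kidney epithelium, and it was barely detected. It (ENSG00000128298, chromosome 22, 38084889 to 38110670, minus strand) had 4, 3 and 5 counts in overexpressing cells, against 4, 15 and 4 counts in wild type cells. Wild type replicate 2 held most of the wild type counts, and the other 5 libraries had 3 to 5 counts each. The ratio of pooled counts, scaled by library size, was 0.612 (exact 95% interval 0.277 to 1.28, for counting error only), and no difference was detectable at this depth. Without wild type replicate 2 the log2 ratio was 0.08, against -0.71 with all libraries.

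**Figure D2:**
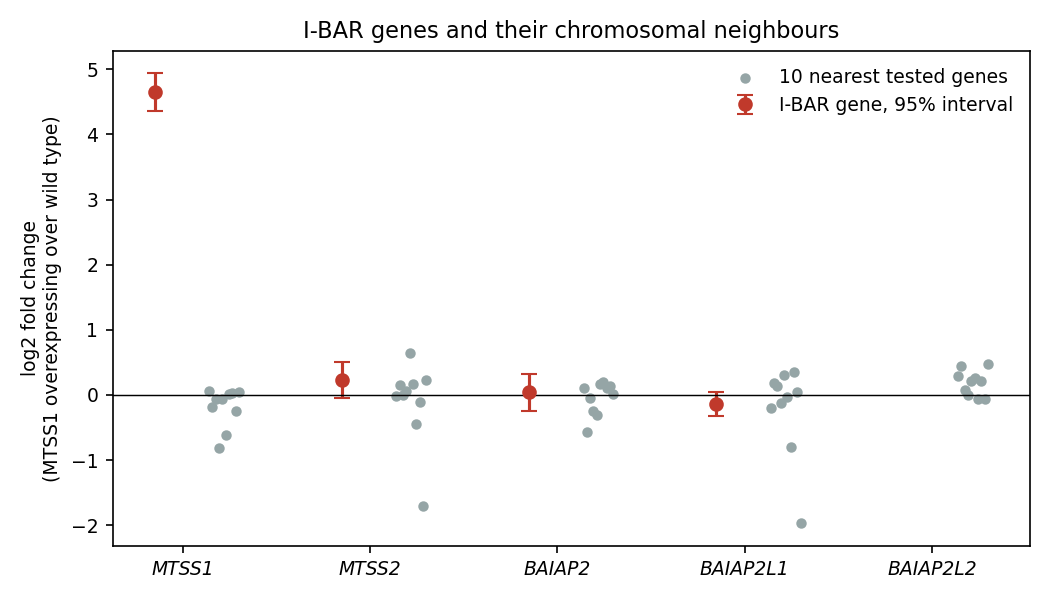
Log2 fold change of MTSS1 overexpressing over wild type cells for each tested I-BAR gene (red, with its 95% interval from edgeR's quasi-likelihood fit) and for its 10 nearest tested genes on the chromosome (grey). MTSS1 stands at 4.65 among neighbours of -0.82 to 0.06, and the intervals of MTSS2, BAIAP2 and BAIAP2L1 include 0. BAIAP2L2 was not tested and has grey points only.

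MTSS1 held most of the family's reads in overexpressing cells, and BAIAP2L1 did in wild type cells. MTSS1 took 66.9%, 64.8% and 68.4% of the counts over the 5 genes in the overexpressing libraries, against 7.78%, 5.49% and 7.77% in the wild type libraries. The exact 95% binomial intervals, for counting error only, spanned 64.2% to 69.0% in overexpressing and 5.05% to 8.49% in wild type libraries. BAIAP2L1 took 26.2 ± 1.53% in overexpressing and 75.7 ± 2.18% in wild type cells (SD, n = 3 each). The summed level of the family was 831.1 ± 8.06 CPM in overexpressing and 316.9 ± 8.90 CPM in wild type cells. The sum of the 4 paralogs was 276.9 ± 16.6 CPM in overexpressing and 294.7 ± 12.5 CPM in wild type cells, with overlapping groups. In both groups replicate 2 had the lowest MTSS1 and the highest BAIAP2L1 level.

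**Figure D3:**
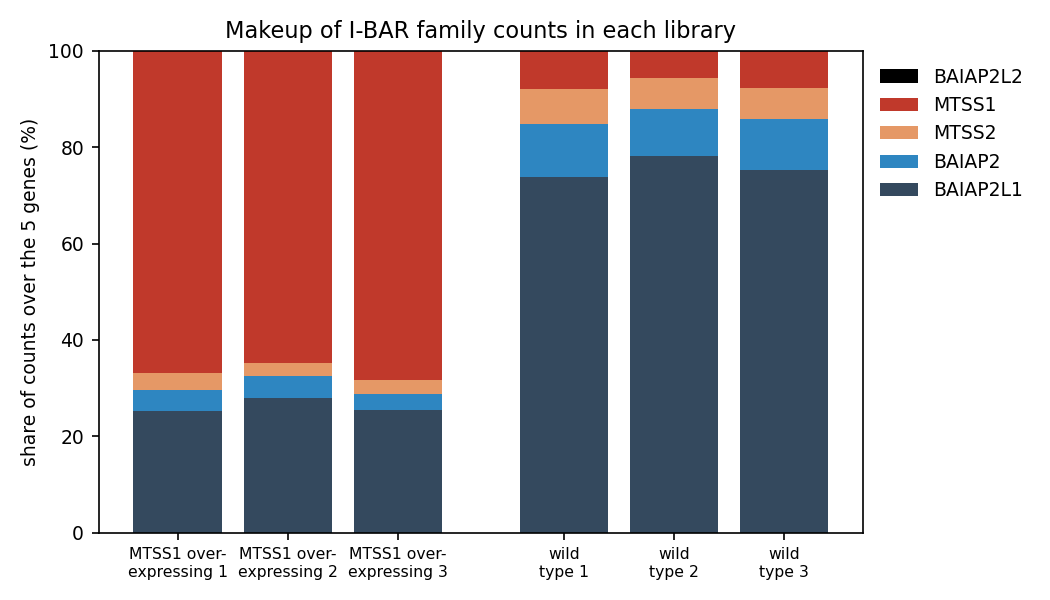
Share of each I-BAR gene in the counts over the 5 genes, in percent, for each MTSS1 overexpressing (left) and wild type (right) library. MTSS1 takes 64.8% to 68.4% in overexpressing libraries and 5.49% to 7.78% in wild type libraries, where BAIAP2L1 takes 73.9% to 78.1%. BAIAP2L2, at most 0.152%, is too thin to see.

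Levels per kilobase of each gene's principal transcript ranked the genes differently in the 2 groups. In overexpressing cells the order was MTSS1 at 112.1, BAIAP2L1 at 60.2, BAIAP2 at 11.9, MTSS2 at 4.94 and BAIAP2L2 at 0.0946 CPM per kilobase. In wild type cells it was BAIAP2L1 at 66.3, BAIAP2 at 11.6, MTSS1 at 4.48, MTSS2 at 4.22 and BAIAP2L2 at 0.133 CPM per kilobase. MTSS1 and MTSS2 overlapped in wild type cells, at 3.63 to 4.91 and 3.95 to 4.54 CPM per kilobase, and no other neighbours in either order did. Per kilobase of all annotated exons BAIAP2 fell behind MTSS2, at 3.32 and 4.93 CPM per kilobase in overexpressing and 3.23 and 4.21 CPM per kilobase in wild type cells, because its union of exons is 10288 bases long against 2879 for its principal transcript. In that measure MTSS1 came below both in wild type cells, at 2.87 CPM per kilobase. The length of the plasmid transcript is not given in the sources used here.

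TMTC1 and AMPH were the 2 genes whose pattern over the 6 libraries was most like that of MTSS1, by the Euclidean distance of centred log2 CPM among 10938 candidate genes. TMTC1, which transfers mannose to cadherins in the endoplasmic reticulum, was nearest, at a distance of 1.08, against 5.71 for a gene with no variation. TMTC1 stood at 16.8, 18.6 and 20.01 CPM in overexpressing cells, against 0.265, 0.364 and 0.488 CPM in wild type cells (log2 fold change 5.58, edgeR's adjusted p = 3.1e-06). The N-BAR gene AMPH, encoding amphiphysin, lay at 2.27. With wild type means of 0.372 CPM for TMTC1 and 3.28 CPM for AMPH, both reached the candidates' mean of 5 CPM only through the overexpressing libraries. A distance to a gene with so large a group difference favours genes that rise strongly, so the likeness restates that difference.

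Among the genes of proteins known to bind or act with I-BAR proteins, calls went in both directions. Of 39 listed partners 35 were tested, 3 were higher, 2 were lower and 30 did not pass (14.3% called, against 4.28% of all tested genes). The count of 5 fell to 1 without any 1 of the 6 libraries, and to 2 against the genes' chromosomal neighbours. Among all tested genes 1.82% were higher and 2.45% lower. The partners' median log2 fold change was -0.04, against 0.00 over all tested genes. With the block 5 were higher and 12 lower, which is 48.6% of the tested partners, against 22.7% of all tested genes. The partner and BAR family lists were chosen with earlier results of these data known, so their shares of calls are no test of the groups.

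The WAVE complex, which drives branched actin assembly downstream of Rac1, had 1 CYFIP subunit gene lower and the other higher. CYFIP1 (ENSG00000273749, chromosome 15, 22867052 to 22981063) stood at 63.5, 56.3 and 59.2 CPM in overexpressing cells, against 91.9, 104.9 and 89.6 CPM in wild type cells. All overexpressing libraries lay below all wild type libraries, as in 13.5% of tested genes (log2 fold change -0.68, SE 0.09, edgeR's adjusted p = 0.006), and the call held in 6 of 6 fits without 1 library. The 50 tested genes around CYFIP1 had a median log2 fold change of -0.38, and against them CYFIP1 changed by -0.30 and did not pass (edgeR's adjusted p = 0.15). CYFIP2 (ENSG00000055163, chromosome 5, 157266079 to 157395595) stood at 9.99, 10.7 and 9.37 CPM in overexpressing cells, against 4.51, 5.76 and 6.01 CPM in wild type cells. It was higher in every overexpressing library (log2 fold change 0.88, SE 0.17, edgeR's adjusted p = 0.023), with a neighbour median of 0.03, but passed in 0 of 6 fits without 1 library (highest edgeR's adjusted p 0.082). The other 8 WAVE and N-WASP genes did not pass, and WASF3, WASF1, BRK1 and WASF2 had log2 fold changes of -0.48, -0.24, -0.21 and -0.14 (edgeR's adjusted p = 0.085, 0.19, 0.25 and 0.46). With the block WASF3, WASF1 and BRK1 passed (edgeR's adjusted p = 0.012, 0.036 and 0.038).

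Of the 10 tested genes of actin elongation and barbed-end control, EVL alone passed without the block, and 4 passed with it. EVL encodes an Ena/VASP protein and stood at 50.9, 50.2 and 54.3 CPM in overexpressing cells, against 41.2, 39.6 and 36.0 CPM in wild type cells (log2 fold change 0.41, SE 0.09, edgeR's adjusted p = 0.041; passing in 0 of 6 fits without 1 library, highest 0.16). Against its chromosomal neighbours EVL did not pass (edgeR's adjusted p = 0.14). Its relative VASP had a log2 fold change of -0.29 and the Eps8 relatives EPS8L1 and EPS8L2 had -0.68 and -0.34 (edgeR's adjusted p = 0.13, 0.15 and 0.24, and 0.0011, 0.032 and 0.021 with the block). The formin gene DIAPH3 had 0.13 (edgeR's adjusted p = 0.43). EPS8L3 was listed at 0 in all libraries.

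The SHANK scaffolds, which bind the BAIAP2 protein at synapses, moved in opposite directions at low levels. SHANK3 stood at 6.02, 5.46 and 5.40 CPM in overexpressing cells, against 2.71, 1.79 and 3.00 CPM in wild type cells (log2 fold change 1.17, SE 0.24, edgeR's adjusted p = 0.031). SHANK1 stood at 3.23, 2.96 and 2.64 CPM in overexpressing cells, against 5.62, 5.52 and 6.12 CPM in wild type cells (log2 fold change -0.97, SE 0.20, edgeR's adjusted p = 0.028). Neither gene's groups overlapped, and both passed in 0 of 6 fits without 1 library (highest edgeR's adjusted p 0.092 for SHANK3 and 0.12 for SHANK1). Against its neighbours SHANK1 did not pass (edgeR's adjusted p = 0.075) and SHANK3 did (0.049). ADGRB1, the receptor BAI1 after which BAIAP2 is named, had a log2 fold change of -1.08 (edgeR's adjusted p = 0.065, and 0.0019 with the block; 0.0094 with DESeq2). The receptor phosphatase gene PTPRS had 0.41 and the polarity genes LIN7B and LIN7C had 0.65 and -0.15 (edgeR's adjusted p = 0.18, 0.37 and 0.45). With the block PTPRS passed (edgeR's adjusted p = 5.4e-04). PTPRD, a reported MTSS1 partner, had 3 pooled counts in overexpressing and 11 in wild type cells, too few to test.

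The other BAR families were compared in the same fit. Of 16 tested F-BAR genes 0 passed edgeR's test (4 at an unadjusted p under 0.05, 1 with DESeq2), against 4.28% of all tested genes, and their median log2 fold change was -0.07. FCHSD2, ARHGAP4, FNBP1 and FCHO2 had the smallest adjusted p, with log2 fold changes of -0.37, -0.53, -0.20 and -0.21 (edgeR's adjusted p = 0.072, 0.12, 0.16 and 0.20). With the block these 4 passed (edgeR's adjusted p = 0.0033, 0.029, 0.016 and 0.034), and 5 F-BAR genes in all, or 31.2%, against 22.7% of all tested genes. Against a neighbour median of 0.74 on chromosome X, ARHGAP4 changed by -1.27 and passed (edgeR's adjusted p = 0.0079). FCHSD2, FNBP1 and FCHO2 did not pass against their neighbours (edgeR's adjusted p = 0.27, 0.55 and 0.13). Of 25 tested N-BAR and classical BAR genes 1 was higher and 2 were lower, with a median of -0.01 (12% called, against 4.28% of all tested genes). With the block 4 were higher and 4 lower (32% called, against 22.7%). AMPH stood at 20.8, 27.8 and 21.8 CPM in overexpressing cells, against 3.55, 2.28 and 4.02 CPM in wild type cells (log2 fold change 2.85, SE 0.22, edgeR's adjusted p = 7.2e-04), and passed in 6 of 6 fits without 1 library. DNMBP, a Cdc42 activator with a BAR domain, stood at 153.9, 170.3 and 169.9 CPM in overexpressing cells, against 222.8, 233.3 and 225.4 CPM in wild type cells (log2 fold change -0.46, SE 0.08, edgeR's adjusted p = 0.014). The sorting nexin gene SNX33 stood at 31.8, 34.3 and 29.8 CPM in overexpressing cells, against 52.6, 46.4 and 46.5 CPM in wild type cells (log2 fold change -0.60, SE 0.10, edgeR's adjusted p = 0.015). DNMBP and SNX33 each passed in 3 of 6 fits without 1 library. Against a neighbour median of -0.28 on chromosome 15, SNX33 changed by -0.32 and did not pass (edgeR's adjusted p = 0.17). SH3GL2, BIN1, ARHGAP44 and SNX1 did not pass without the block, at log2 fold changes of 0.98, -0.39, 1.63 and -0.25 (edgeR's adjusted p = 0.055, 0.089, 0.12 and 0.13). They passed with it (edgeR's adjusted p = 0.011, 0.011, 0.043 and 0.013), and SH3GL2 and BIN1 also passed with DESeq2 (adjusted p = 0.026 and 0.043).

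**Figure D4:**
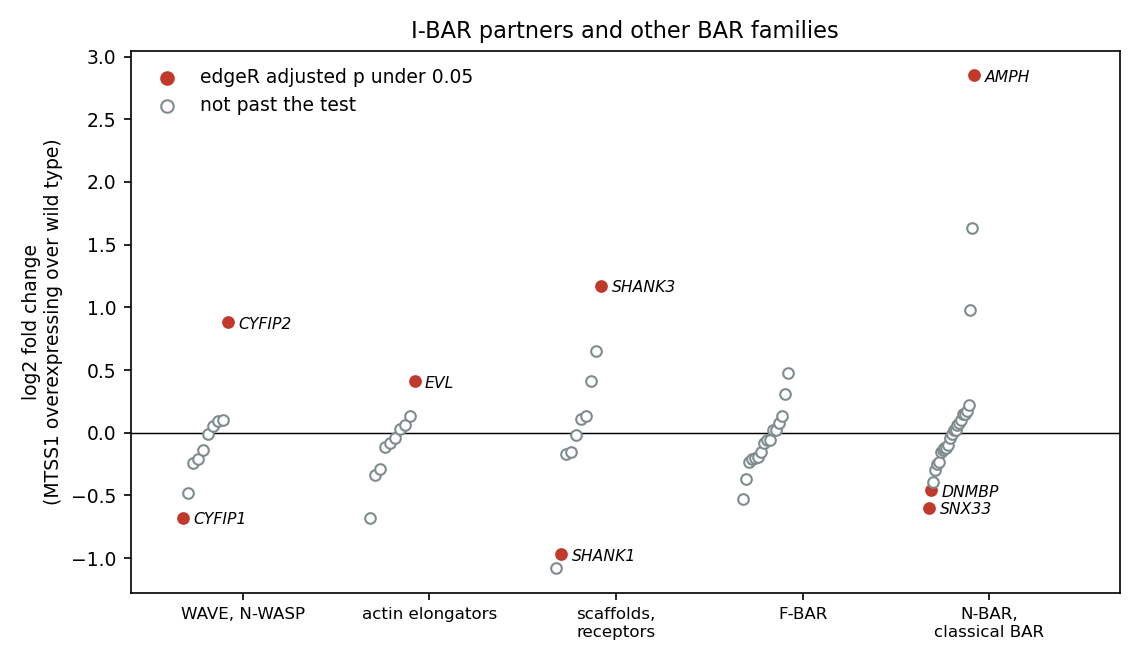
Log2 fold change of MTSS1 overexpressing over wild type cells for the tested genes of 3 groups of I-BAR partners and of the F-BAR and the N-BAR and classical BAR families. Filled points passed edgeR's test without the block (adjusted p under 0.05): CYFIP2, EVL, SHANK3 and AMPH were higher and CYFIP1, SHANK1, DNMBP and SNX33 lower, with AMPH at 2.85.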

How the data were processed

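Poly(A) RNA of 6 NCI-H1299 libraries was sequenced as single reads of 50 cycles from a directional kit, per the labels' protocols. The deposited table holds raw read counts per Ensembl gene, and the submitters' processing notes name bcl2fastq, HISAT2 2.1.0, HTSeq and GRCh38. Which annotation release and strand setting were used is not stated there, and values of overlapping genes are therefore uncertain. Coordinates, lengths and transcripts came from GENCODE release 29 (GRCh38). Counts were scaled with TMM, filtered with filterByExpr and tested with edgeR 4.0.16 in R 4.3.3 (quasi-likelihood, two-sided, Benjamini-Hochberg over 16091 genes, all 6 libraries), and the procedure was tested on simulated data. DESeq2 1.42.0, other scaling and filters, left-out libraries, a block and an offset from chromosomal neighbours were alternatives. The offset used 25 neighbours on each side, or 50 with more of them on 1 side near a chromosome end. It was added after seeing the data. Replicates are the labels' samples. The labels name no separate cultures, and the p-values then reflect only how far these libraries spread, which may be technical. Counts of replicates were farther apart than sampling alone gives (chi-square over its degrees of freedom 14.7 to 28). Named genes are the 5 members, the called genes of each list and up to 4 others by smallest p, and the 3 genes most like MTSS1, of which 1 and some list genes are not reported here (mean of at least 5 CPM, log2 CPM with prior count 2). The members and lists were chosen with earlier results of these data known. Read counts without molecular identifiers do not count independent molecules, and intervals from counts cover counting error only.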

Additional observations from a re-analysis of the deposited data

How the results depend on the processing

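MTSS1 passed the test with a log2 fold change of 4.51 to 4.72 in each of 12 alternatives, and MTSS2 did not pass in any of 13, at 0.13 to 0.28. BAIAP2 did not pass in any either and lay between -0.0588 and 0.16. Its sign turned with the neighbour offset (-0.0588), without the 2 libraries numbered 2 and 3 (-0.0014) and without overexpressing replicate 1 or 2, and with 1 library left out it lay between -0.0361 and 0.16. The cause was not tested. BAIAP2L1 lay between -0.19 and -0.0932 and passed only with the replicate block (-0.14, edgeR adjusted p = 0.043). The block rests on neighbouring title numbers, whose deviations from the group means correlated at 0.66, 0.34 and 0.38, against -0.4 to 0.1 for other pairs. Within a group each gene's deviations sum to 0, so a positive correlation with 1 library brings a negative one with at least 1 other. The contrast is therefore partly built in. The number of changed genes was 688 and moved to 3651 with the block, 1489 without a filter, 1253 with DESeq2, 330 with the neighbour offset, 132 without the libraries numbered 2 and 3, and 145 to 346 without 1 library. Partner genes changed numbered 5, with 17 in the block, 2 with the offset, and 1 without the libraries numbered 2 and 3 or without any 1 library (lowest and highest 1). F-BAR and N-BAR genes changed numbered 3, with 13 in the block, 6 without a filter and with DESeq2, 1 without the libraries numbered 2 and 3, and 1 to 3 without 1 library. The share of MTSS1 in the family was 59.3% in overexpressing and 5.19% in wild type cells per principal transcript length, and 57.2% in overexpressing and 4.76% in wild type cells per union of exons. Depth limits BAIAP2L2, with 12 pooled counts in overexpressing and 23 in wild type cells.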

Other observations

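Filopodia are the protrusions that I-BAR proteins help to form, and genes of other filopodial proteins were read in the same fit. Of 11 listed genes 7 were tested, 0 were higher and 2 lower in overexpressing cells (28.6% called, against 4.28% of all tested genes), and 0 were higher and 3 lower with the block (42.9%, against 22.7%). This list was also chosen with earlier results of these data known, so its share of calls is no test of the group. Over the 7 genes the log2 fold change had a median of -0.12. MYO10, the myosin that carries cargo to filopodial tips, had 0, 1 and 2 counts in the overexpressing libraries, against 335, 565 and 436 counts in the wild type libraries (edgeR's adjusted p = 3.1e-06). FMNL3, a formin of filopodia, stood at 204.3, 168.6 and 193.3 CPM in overexpressing cells, against 247.7, 263.5 and 235.4 CPM in wild type cells (log2 fold change -0.40, SE 0.09, edgeR's adjusted p = 0.045), and passed in 0 of 6 fits without 1 library (highest 0.13). FSCN1, encoding the actin bundler fascin, did not pass, with a log2 fold change of -0.37 (edgeR's adjusted p = 0.26; 0.0012 with the block). FMNL1, FMNL2 and TLN1 had 0.29, -0.12 and -0.11 (edgeR's adjusted p = 0.28, 0.54 and 0.64).

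Of the 40 nearest tested genes of the 4 paralogs 3 passed (7.5%, against 4.28% of all tested genes). CALB2, encoding the calcium-binding protein calretinin, lies near MTSS2 and had a log2 fold change of -1.70 (edgeR's adjusted p = 0.0097). TRRAP, a scaffold of histone acetyltransferase complexes, and MYH16 lie beyond BAIAP2L1 and had 0.35 and -1.97 (edgeR's adjusted p = 0.041 and 0.023). The median over the 10 nearest tested genes was 0.03 for MTSS2, 0.06 for BAIAP2, 0.01 for BAIAP2L1 and 0.22 for BAIAP2L2.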
